A study of Caenorhabditis elegans with 18 samples.

Results

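The LEM-2 contact that remains in met-2(n4256) embryos of Caenorhabditis elegans was described from 6 of the 18 libraries of the series, 3 of LEM-2 chromatin immunoprecipitation (IP) and 3 of input chromatin. These are the libraries that the labels assign to met-2, and the question was which stretches of the genome stay enriched or depleted in LEM-2, how long they are and where they lie. The embryos were early ones, before the bean stage, at 20 degrees, and the label names no allele other than n4256 on chromosome III. The 6 libraries of the wild type N2 (Bristol), also 3 IP and 3 input, served as the reference. All libraries of both strains share the same range of synchronization hours, per the labels. The label gives no cell type, so each value is a mean over all cells of many embryos. The submitters describe 3 independent biological replicates per strain.

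LEM-2 is a LEM-domain protein of the inner nuclear membrane, and chromatin that is recovered with it lay at the nuclear periphery when the embryos were fixed. In wild-type worms the arms of the autosomes, rich in repeats and in methylation of histone H3 at lysine 9, are held at the periphery, while the gene-rich centres lie further inside. MET-2, the worm SETDB1 homologue, makes mono- and dimethylated H3K9. SET-25 makes the trimethylated form, and the chromodomain protein CEC-4 binds methylated H3K9 at the periphery. The LEM-2 profile of met-2 embryos therefore shows where contact is left without the MET-2 enzyme, relative to the rest of the genome.

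LEM-2 enrichment is given as the log2 level of an IP library minus the mean log2 level of the 3 inputs of its strain, averaged over bins of 10 kb. Levels are on a log2 scale, taken after adding 2 to the scaled read number of each 500-bp window. A value of 0 means the share of reads that input has, and all values are relative to the total of the library. The IP libraries of met-2 held 8.73 to 33.05 M reads and the inputs 32.3 to 59.5 M, against 23.36 to 38.67 M and 35.0 to 47.3 M in N2. All 10029 bins passed the minimum of 10 mean input reads. Chromosome III was searched for windows nearly empty in the met-2 inputs and covered in the N2 inputs, which gave the interval from 8376501 to 8377500. There the met-2 IP libraries (columns a, b, c) had 5, 0 and 0 reads and the met-2 inputs 3, 0 and 1, against 143, 91 and 159 reads in N2 IP and 435, 358 and 425 in N2 inputs. The input counts follow from the search. Columns b and c labelled set-25 had 0 and 1 reads in IP and 0 and 0 in input, so the gap is not particular to the met-2 label. No LEM-2 value can be read there.

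The 3 met-2 IP libraries carried the same profile at different strengths. The SD of enrichment over bins was 0.22 in column a, 0.32 in column b and 0.43 in column c, against 0.86, 0.65 and 0.65 in N2. Every met-2 library was thus flatter than every N2 library, and column a was the flattest of the 6. Taking each IP against the input of its own letter, so that no input is shared, Pearson's r across the 10029 bins was 0.89 between columns a and b, 0.80 between a and c and 0.84 between b and c. Bins of a library share its depth and neighbours are alike, so these are descriptions. The r of input levels was 0.96 between a and b, 0.86 between b and c and 0.75 between a and c. Per bin the 3 met-2 inputs spanned a median of 0.12 on the log2 scale, and 88 bins spanned over 0.5.

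LEM-2 IP in met-2 embryos still differed from input in 55.4% of bins. A bin was called where its adjusted p in limma (Benjamini-Hochberg over all bins) was under 0.05. In met-2, 2297 of 10029 bins (22.9%) were enriched and 3255 (32.5%) depleted. In N2 the same fit gave 3221 enriched bins (32.1%) and 5311 depleted bins (53%), 85.1% in all. The enriched bins averaged 0.29 in column a, 0.38 in b and 0.49 in c, and the depleted bins -0.24, -0.40 and -0.55. The bins had been chosen by these values, so the averages describe them only. On median-centred libraries, which adds 0.073 to every met-2 bin, the split was 2913 enriched and 2565 depleted, so 53.2% of called bins were enriched, against 41.4% on total scaling. With voom on recovered reads it was 3117 and 2620.

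Input levels moved a little with these calls. In bins enriched in met-2 the mean log2 levels of inputs a, b and c were 7.35, 7.33 and 7.27, and in depleted bins 7.39, 7.41 and 7.43. The IP levels were 7.61, 7.69 and 7.80 in enriched bins and 7.17, 7.02 and 6.86 in depleted bins. The part of input coverage in the calls was not tested. Without input c 2035 bins were enriched and 2729 depleted.

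**Figure D1:**
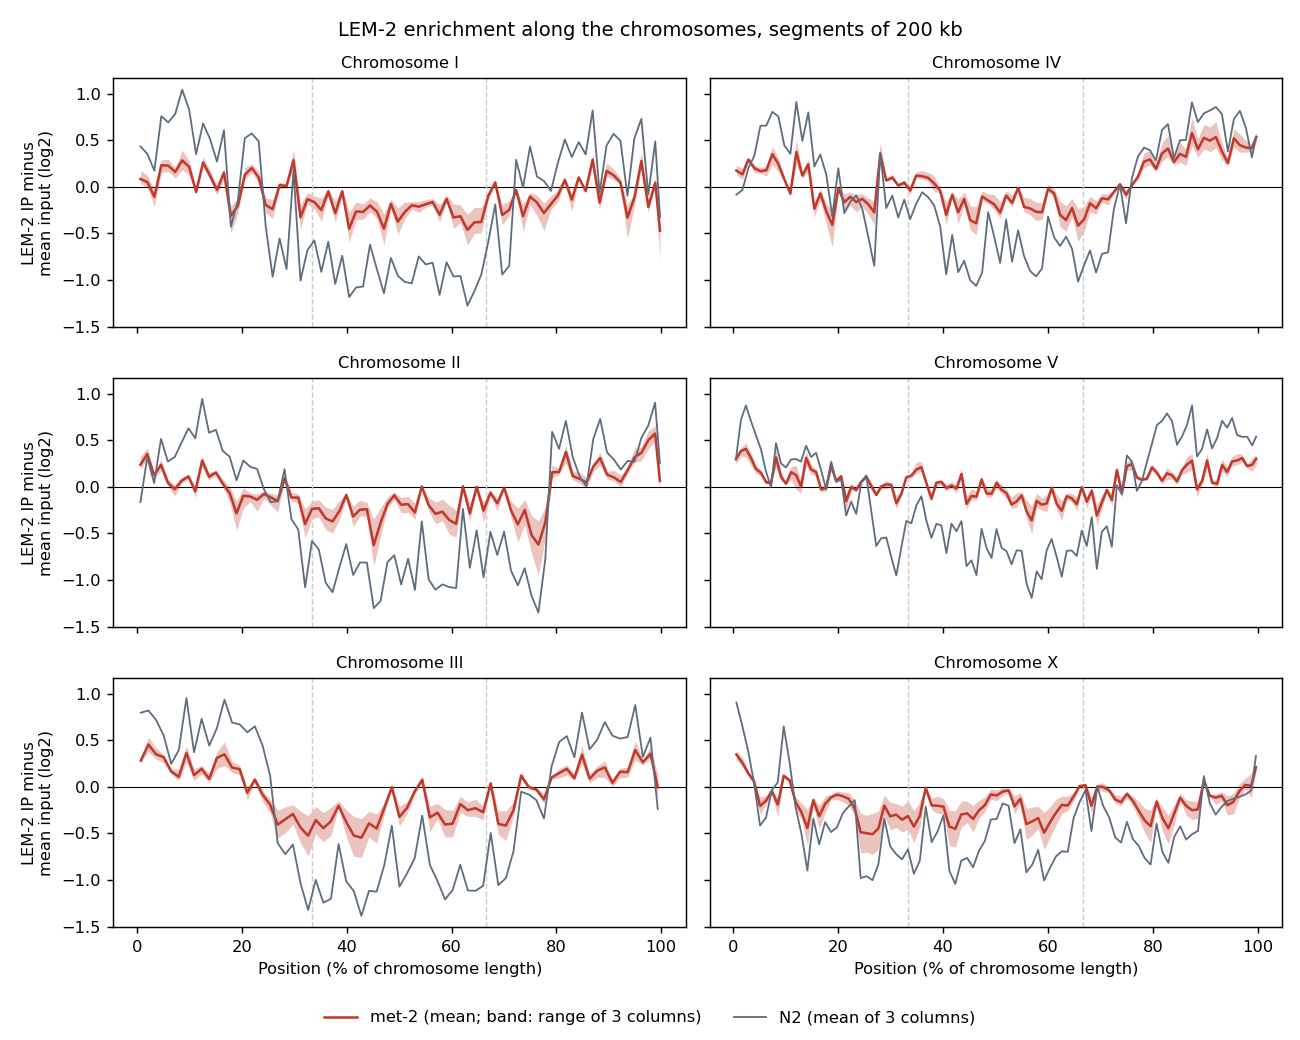
LEM-2 IP minus mean input (log2) in segments of 200 kb against position in percent of chromosome length, for met-2 (mean and range of 3 columns) and N2 (mean of 3 columns); dashed lines divide each chromosome into left, middle and right parts. The met-2 line swings less than the N2 line (Pearson's r of the 10-kb profiles is 0.86), and the right part of IV, at 0.23 over the whole part, stands above the other parts.

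Along the chromosomes, the right part of IV and both outer parts of V were enriched, as was the right part of III, and the centres of I to IV and all of X were depleted. Of the 18 chromosome parts (left, middle and right parts of equal length), 4 were enriched (22.2%) and 7 depleted (38.9%) by limma over the 18 parts. The right part of IV had the highest value, at 0.20, 0.21 and 0.29 in met-2 columns a, b and c (mean 0.23, SE 0.043, adjusted p = 0.00319). Its mean log2 levels were 7.52, 7.52 and 7.60 in IP and 7.38, 7.33 and 7.23 in input, so no IP library overlapped an input library. The right part of V, at 0.11 ± 0.011, the left part of V, at 0.095 ± 0.013, and the right part of III, at 0.071 ± 0.012 (SD, n = 3), were the other enriched parts. In N2 the right parts of IV, V and III were at 0.27, 0.28 and 0.14, and the left part of V at 0.053. Of these only the right part of V differed between the strains (limma over the 12 libraries, adjusted p = 0.00183). The right part of IV, the left part of V and the right part of III did not pass (limma, adjusted p = 0.605, 0.248 and 0.105). The right part of III lost its call in 4 of the 6 fits with a library left out (limma, adjusted p = 0.0898 to 0.175: without IP b, IP c, input a or input b), and the left part of V lost it without input b (adjusted p = 0.0524).

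The depleted parts were the middle parts of I to IV and all of X. The middle part of III was lowest, at -0.19, -0.30 and -0.40 in columns a, b and c (mean -0.30, SE 0.048, adjusted p = 0.00319). The middle parts of I, II and IV averaged -0.26 ± 0.090, -0.24 ± 0.091 and -0.16 ± 0.072 (SD, n = 3). On X the averages were -0.17 ± 0.082 in the left part, -0.24 ± 0.10 in the middle and -0.15 ± 0.068 in the right (SD, n = 3). All 3 columns were below 0 in each of these parts, with column a nearest to 0 and column c farthest from it. The middle part of V stood apart from the other centres: it was at -0.017, -0.095 and -0.085, and did not pass (limma, adjusted p = 0.095). It passed as depleted without IP a (adjusted p = 0.0128) or without input c (adjusted p = 0.0493).

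The left parts of I to IV and the right parts of I and II also did not pass in either direction. Among them the left part of II was nearest to 0, at 0.019, 0.015 and -0.052 (mean -0.0058), and turned to 0.067 on median-centred libraries (limma, adjusted p = 0.058). Centring also brought the left parts of I, III and IV and the right part of II past the threshold as enriched, with values of 0.11, 0.13, 0.11 and 0.11. Divided by the SD over bins of its own library, the right part of IV was at 0.91, 0.65 and 0.67 SDs in columns a, b and c, the highest part in each column, and the middle part of III was at -0.86, -0.93 and -0.92, the lowest in each.

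**Figure D2:**
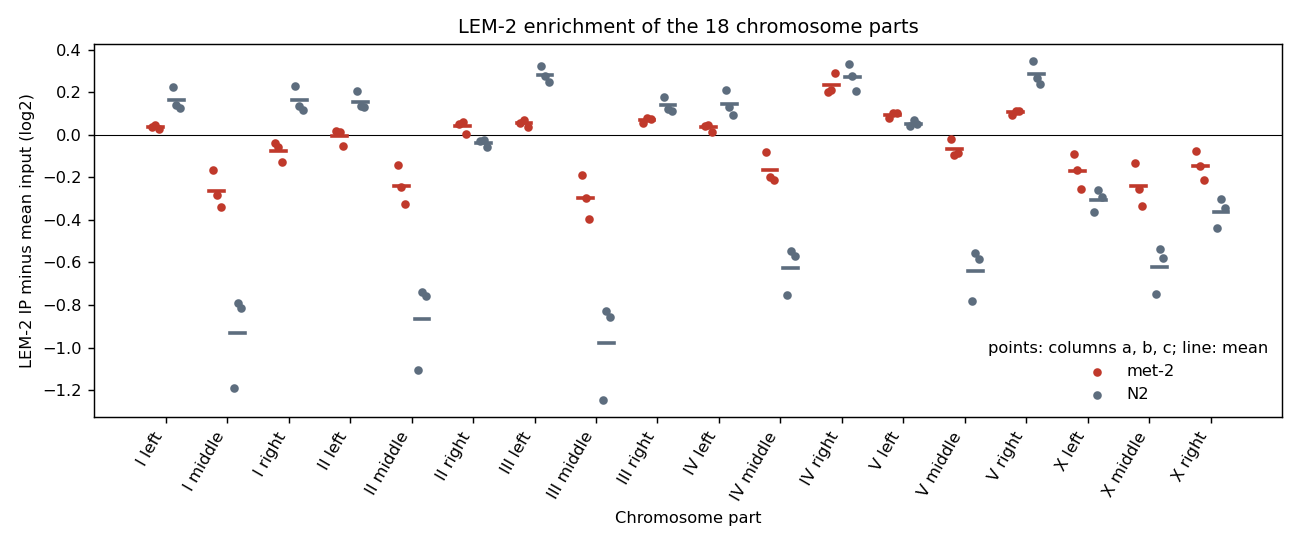
LEM-2 IP minus mean input (log2) of the 18 chromosome parts, with points for columns a, b and c and a line for the mean, met-2 left of N2. In met-2 the right part of IV is highest at 0.23 and the middle part of III lowest at -0.30.

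The contrast between arms and centres was small in met-2. The outer parts of the autosomes minus their middle parts came to 0.011, 0.12 and 0.15 in IP libraries a, b and c, against -0.20, -0.18 and -0.12 in inputs a, b and c. All 3 IP libraries lay above all 3 inputs, and the two-sided exact permutation test gave p = 0.1, as small as 3 against 3 can give (0.2 adjusted over 2 contrasts). IP minus input was 0.26 ± 0.072 in met-2 and 0.95 ± 0.21 in N2 (SD, n = 3). On X, the left part minus the rest was 0.0049, 0.029 and 0.010 in IP, against -0.028, -0.0099 and 0.016 in input, where the groups overlapped (exact permutation p = 0.3). With medians over bins the X contrast was -0.011, and with the outermost 25% as the left part it was 0.11 (exact permutation p = 0.1).

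Most chromosome ends were above 0 in met-2, and those of II left, II right, III left, IV right and V left were among the highest. In the outermost 500 kb, the left end of II was at 0.29 ± 0.044 in met-2 and 0.092 ± 0.022 in N2, and the left end of IV at 0.19 ± 0.043 in met-2 and -0.0024 ± 0.022 in N2 (SD, n = 3). The right ends of II and IV were at 0.45 ± 0.05 and 0.44 ± 0.04 in met-2, against 0.66 ± 0.09 and 0.50 ± 0.08 in N2. The left ends of III, V and X were at 0.37 ± 0.04, 0.34 ± 0.024 and 0.27 ± 0.044 in met-2, against 0.81 ± 0.11, 0.56 ± 0.090 and 0.70 ± 0.07 in N2 (SD, n = 3). The right ends of III and X were at 0.19 ± 0.032 and 0.062 ± 0.083 in met-2, against 0.16 ± 0.022 and 0.032 ± 0.024 in N2 (SD, n = 3). In met-2 the columns fell on both sides of 0 at the left end of I and the right end of X. The right end of I was below 0 in all 3 met-2 columns, at -0.12 ± 0.071 in met-2 and 0.16 ± 0.063 in N2 (SD, n = 3). Differences between ends were not tested.

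Of the 97 full segments of 1 Mb, 34 had all 3 met-2 columns above 0, 53 had all below 0 and 10 had columns on both sides. On IV, enrichment lay at -0.10 ± 0.04 in the segment that starts at 12000001, and at 0.12 ± 0.03, 0.31 ± 0.09 and 0.46 ± 0.12 in the next 3 segments (SD, n = 3). On II the change was sharper: the segment from 11000001 to 12000000 was at -0.43 ± 0.20 and its right neighbour at 0.18 ± 0.04. On V, all 1-Mb segments between 4000001 and 11000000 lay at most 0.085 from 0.

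Neighbouring bins with the same call were joined into domains, bridging 1 uncalled bin and keeping runs of at least 3 bins (30 kb). This gave 260 enriched domains covering 22.62 Mb, 22.6% of the genome, and 323 depleted domains covering 30.32 Mb, 30.2%. In N2 the rule gave 248 enriched domains over 33.02 Mb and 214 depleted domains over 52.03 Mb, and 272 and 233 domains over 33.28 and 52.69 Mb without N2 column a. That column stands apart on V from 2350001 to 2560000, where N2 input a had a level of 6.11 and the other N2 inputs 8.14 and 8.19. The met-2 inputs were at 7.91, 8.11 and 8.22 there, and met-2 enrichment at -0.064, 0.24 and 0.14. Against the input of its own letter it was 0.10, 0.21 and 0.0066, so the sign in column a turned with the input used. The enriched domains of met-2 held 87.2% of its enriched bins, and the depleted ones 86.2% of its depleted bins. Median length was 60 kb for both kinds in met-2, against 80 kb for enriched and 70 kb for depleted domains in N2.

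Long domains were fewer in met-2. Enriched domains of 300 kb or more numbered 9 in met-2, covering 3.54 Mb, against 23 in N2 covering 11.37 Mb. Depleted domains of that length numbered 15 in met-2, covering 7.69 Mb, against 43 in N2 covering 38.75 Mb. Domains under 100 kb held 41.4% of the enriched and 40.9% of the depleted length in met-2, against 22.6% and 12.1% in N2. One N2 depleted domain held 20 separate depleted domains of met-2, and 51 of the 214 held at least 2. A domain ends where bins miss the threshold, and the met-2 profile was the flatter one (SDs above), whose part in the lengths was not tested.

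**Figure D3:**
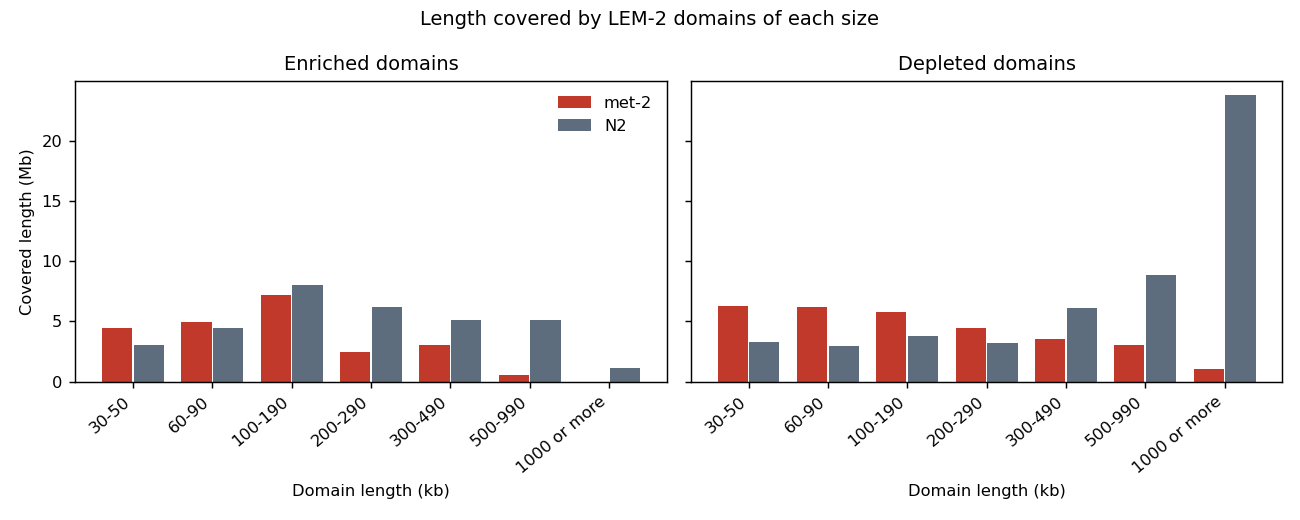
Length of genome (Mb) covered by enriched and depleted LEM-2 domains of each length class (kb), met-2 left of N2. Depleted domains of 300 kb or more cover 7.69 Mb in met-2 and 38.75 Mb in N2.

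The enriched domains of met-2 lay mostly on the outer parts. Of their length, 20.01 Mb (88.5%) was shared with enriched domains of N2, which covered 32.9% of the genome. In the outer parts of all chromosomes 47.2% of bins were enriched in N2. By the looser count of touching an enriched domain of N2 at all, 229 of the 260 did so. By midpoint, 237 of the 260 lay in an outer part, covering 20.99 Mb, and 23 in a middle part, covering 1.63 Mb. The outer parts hold 6685 of the 10029 bins, and in N2 237 of 248 enriched domains lay in them. Chromosome V had 77 enriched domains over 6.67 Mb, 31.9% of its length, and IV had 51 over 5.55 Mb, 31.7%. The shares were 26.8% on III, 22.2% on II, 16.1% on I and 5.02% on X, which held 14 of them. Depleted domains covered 45.5% of X, 37.1% of I, 34.0% of III, 30.9% of II, 24.6% of IV and 14.1% of V. Chromosome V thus had the largest enriched share and the smallest depleted share of the 6 chromosomes in met-2. Across domains, median height of enriched ones was 0.23 in column a, 0.32 in b and 0.41 in c, and that of depleted ones -0.22, -0.36 and -0.50. Column c was farther from 0 than column a in 257 of 260 enriched and in 323 of 323 depleted domains.

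The longest enriched domain, on V from 360001 to 890000 in the left part, measured 530 kb. Its mean log2 levels were 7.52, 7.64 and 7.67 in IP columns a, b and c, against 7.23, 7.26 and 7.29 in the inputs. The bins had been called by these levels, so their separation only describes the domain. Enrichment there was 0.35 ± 0.08 in met-2 and 0.76 ± 0.08 in N2 (SD, n = 3). Most of its bins, 88.7%, were lower in met-2 than in N2 by limma over the 12 libraries, where 22.2% of all bins were lower.

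On the right part of IV, the domain from 15060001 to 15550000 was the longest of that chromosome. IP levels were 7.64, 7.74 and 7.92, against 7.37, 7.28 and 7.07 in the inputs, and enrichment was 0.53 ± 0.14 in met-2 and 0.84 ± 0.15 in N2 (SD, n = 3). Nearer the end, the domain from 16510001 to 16640000 was the highest of IV, at 0.54, 0.63 and 0.84 in columns a, b and c, and at 0.94 ± 0.18 in N2 (SD, n = 3). Of its 13 bins 7.69% were called lower than in N2. In both domains input c was the lowest input and IP c the highest IP.

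Chromosome II ended in its longest enriched domain, from 14830001 to 15250000, which stops 29.3 kb before the last window. It was at 0.46, 0.53 and 0.63 in columns a, b and c, and at 0.83 ± 0.10 in N2 (SD, n = 3). The highest domain of II, from 13530001 to 13590000, was at 0.67 ± 0.17 in met-2 and 1.08 ± 0.25 in N2 (SD, n = 3). On III the longest enriched domain ran from 450001 to 780000 at 0.35 ± 0.06, and the highest from 240001 to 340000 at 0.68 ± 0.15, against 0.66 ± 0.06 and 1.10 ± 0.11 in N2 (SD, n = 3). The second of these was the highest enriched domain of all 260.

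The highest enriched domain of V, from 19390001 to 19490000 on the right part, was at 0.49 ± 0.16 in met-2 and 1.16 ± 0.14 in N2 (SD, n = 3), and all of its bins were called lower. On X the longest domain was also the highest. It began at the first window and reached 320000, with 0.31 in column a, 0.40 in b and 0.45 in c, against 0.95 ± 0.10 in N2 (SD, n = 3), and 96.9% of its bins were called lower. The median over the 14 enriched domains of X was 45 kb.

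The longest depleted domain lay in the middle part of III, from 5430001 to 6490000, 1060 kb long. Its IP levels were 7.16, 7.01 and 6.81, against 7.44, 7.46 and 7.48 in the inputs, levels by which its bins had been called. Enrichment was -0.47 ± 0.17 in met-2 and -1.18 ± 0.28 in N2 (SD, n = 3). On X the domain from 4120001 to 5040000 measured 920 kb and was at -0.47 ± 0.20 in met-2 and -0.89 ± 0.17 in N2 (SD, n = 3). The longest depleted domains of IV, from 7900001 to 8230000, and of V, from 11610001 to 11790000, were at -0.39 ± 0.15 and -0.29 ± 0.11 in met-2, against -1.10 ± 0.23 and -1.07 ± 0.24 in N2 (SD, n = 3).

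Short and deep depleted domains were found too. On III the domain from 6920001 to 6990000 was at -0.54 ± 0.18, and on V the one from 13650001 to 13680000 at -0.52 ± 0.18, against -1.34 ± 0.28 and -1.21 ± 0.25 in N2 (SD, n = 3). On IV the domain from 4020001 to 4060000 was at -0.50 ± 0.26 in met-2 and -0.72 ± 0.07 in N2 (SD, n = 3), and 0 of its bins were called different between the strains. On X the domain from 13510001 to 13540000 was at -0.47 ± 0.23 in met-2 and -1.06 ± 0.12 in N2 (SD, n = 3).

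Long depleted domains also lay in autosomal outer parts. The deepest depleted domain of all 323 lay on the right part of II, from 11430001 to 11930000, and measured 500 kb. It was at -0.34, -0.54 and -0.84 in columns a, b and c (IP levels 7.01, 6.81 and 6.52, input levels 7.29, 7.32 and 7.44), and at -1.24 ± 0.24 in N2 (SD, n = 3). On the left part of III, domains from 4150001 to 4670000 and from 3600001 to 3930000 were at -0.45 ± 0.18 and -0.44 ± 0.17 in met-2, against -1.10 ± 0.24 and -0.76 ± 0.14 in N2 (SD, n = 3). Their midpoints lay at 76.4%, 32.0% and 27.3% of the chromosome length.

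Enriched bins inside autosomal centres were more numerous in met-2 on total scaling, by a margin that rested largely on V and on the scaling. In the middle parts of the autosomes 187 of 2754 bins were enriched in met-2 and 57 in N2, and 107 of these 187 lay on V, where N2 had 7. On median-centred libraries the autosomal middle parts had 312 enriched bins in met-2 and 219 in N2, and that of V 170 in met-2 and 66 in N2. In the middle parts of I to IV the count was 80 in met-2 and 50 in N2 on total scaling, and 142 in met-2 and 153 in N2 on centred libraries, where the order turned. The longest enriched domain in a middle part ran on V from 7250001 to 7430000, at 0.23, 0.28 and 0.42 in columns a, b and c, and at 0.058 ± 0.014 in N2 (SD, n = 3). Here 61.1% of the bins were higher in met-2 by limma on total scaling, beside 45.4% of all bins tested. Such bins were common around it: on median-centred libraries 497 of the 698 bins of the middle part of V were higher in met-2. A domain on V from 6930001 to 7050000 was at 0.28 ± 0.069 in met-2 and -0.0027 ± 0.017 in N2 (SD, n = 3), with 75% of bins higher. On IV the domain from 6160001 to 6290000 was at 0.32 ± 0.11 in met-2 and 0.25 ± 0.031 in N2 (SD, n = 3), with 0 of its bins called different. All these domains were called by met-2 values that the comparison with N2 uses too, so the shares of higher bins only describe them.

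To see whether the domains recur in a library that did not define them, they were called again from the libraries of 2 letters and measured in the IP and input of the remaining letter. The share of domains on the same side of 0 was 280 of 280 enriched and 346 of 349 depleted domains in column a, 198 of 198 and 187 of 187 in column b, and 217 of 219 and 265 of 266 in column c. Among all bins, 42.3 to 43.9% were above 0 in these columns and 56.1 to 57.7% below. The median height of enriched domains was 0.21, 0.37 and 0.44 in held-out columns a, b and c, and that of depleted domains -0.18, -0.46 and -0.53. Column a again gave the smallest heights and column c the largest.

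Domain edges were seen in the held-out columns as well. For enriched domains of at least 100 kb, enrichment 20 to 50 kb inside the edge averaged 0.28, 0.43 and 0.51 in columns a, b and c, and 0.13, 0.18 and 0.10 at the same distance outside. The lowest point lay close to the edge, 11.25 kb outside in columns a and b and 8.75 kb outside in column c, at 0.040, -0.011 and -0.18. A domain ends where more than 1 bin in a row is uncalled or a bin has the opposite call. Bins just outside were thus chosen to be weak in the calling columns, and the part of this rule in the dip was not tested. For depleted domains the averages were -0.22, -0.48 and -0.56 inside and -0.10, -0.28 and -0.19 outside. In the first 5 kb on each side of the edge of enriched domains the averages were 0.23, 0.34 and 0.44 inside and 0.12, 0.17 and 0.12 outside. For depleted domains they were -0.16, -0.41 and -0.37 inside and -0.12, -0.36 and -0.20 outside. Inside and outside thus lay closer together at depleted than at enriched edges in every column, and nearly level in columns a and b.

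**Figure D4:**
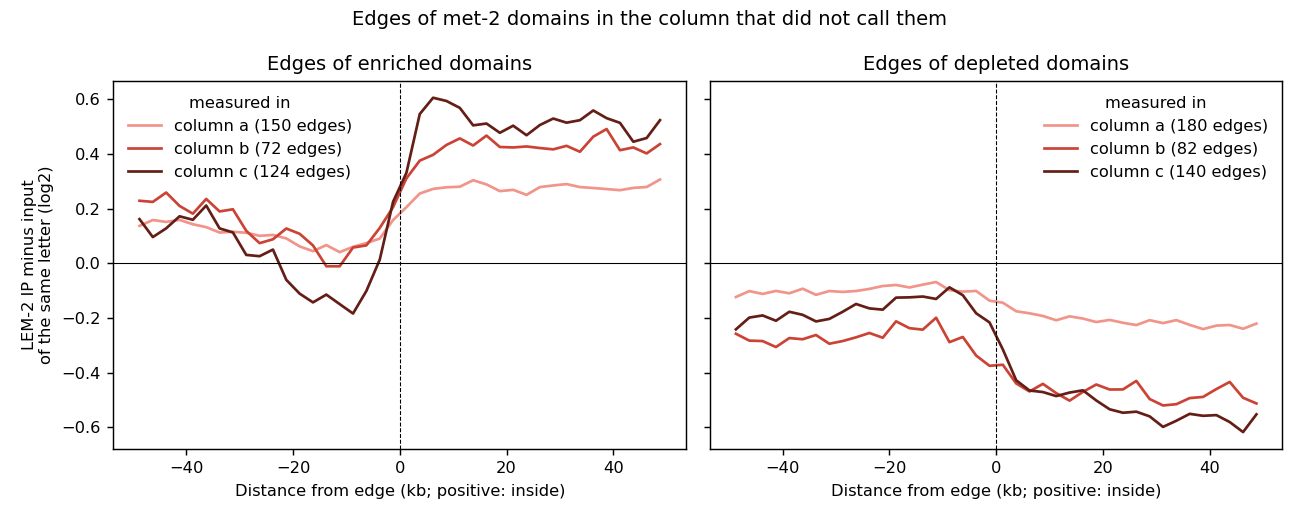
LEM-2 IP minus input of the same letter (log2) against distance from domain edges (kb, positive inside), for domains of at least 100 kb called from 2 letters and measured in the third, in steps of 2.5 kb. Enrichment of enriched domains in columns a, b and c is 0.28, 0.43 and 0.51 from 20 to 50 kb inside.

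At the scale of the deposited windows most of the signal inside domains had the sign of the domain, whose bins were chosen by it. Of the 45240 windows of 500 bp inside enriched domains 91.5% were above 0, with a median of 0.37, and of the 60640 inside depleted domains 5.60% were, with a median of -0.38. Outside domains 46.7% of windows were above 0. Median input depth per window was 209 reads in enriched domains, 228 in depleted domains and 217 outside. Long domains were somewhat stronger: median height was 0.29 for enriched domains under 60 kb and 0.38 for those of 200 kb or more, and -0.35 and -0.43 for depleted ones. Height and length both rest on the values that called the domains.

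Most bins called in met-2 had the same call in N2. Of the 3221 bins enriched in N2, 1990 (61.8%) were also enriched in met-2, 1187 were not called and 44 were depleted. Of the 5311 bins depleted in N2, 3096 (58.3%) were also depleted in met-2, 2142 were not called and 73 were enriched. Without N2 column a these shares were 61.8% and 57.8%. Seen from met-2, 86.6% of its enriched bins and 95.1% of its depleted bins had the same call in N2. Over all bins, 22.9% were enriched and 32.5% depleted in met-2, and 32.1% and 53% in N2. Pearson's r between the mean profiles was 0.86 across 10029 bins, whose neighbours are alike. Bins 1000 kb apart still had r = 0.29 in met-2 and 0.51 in N2, and bins 10 kb apart 0.80 in met-2 and 0.90 in N2.

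By limma over the 12 libraries of both strains, 6783 of 10029 bins (67.6%) differed, 4555 (45.4%) higher in met-2 than in N2 and 2228 (22.2%) lower. The split was 2849 higher and 3425 lower on median-centred libraries, and on total scaling the median over bins of the difference, met-2 minus N2, was 0.20. With N2 column a left out, on total scaling, it was 3970 and 1903. Among the 1990 bins enriched in both strains, 1171 were lower in met-2, 1 was higher and 818 were not called. Among the 3096 depleted in both, 2582 were higher in met-2 and 514 were not called. Both classes were formed on total scaling from values that the test of the difference uses too, so these counts only describe them. On centred values 646 bins of the autosomal outer parts were higher in met-2 and 3128 lower, 1941 bins of the autosomal middle parts were higher and 34 lower, and on X 262 were higher and 263 lower. Of the 73 bins with opposite calls, enriched in met-2 and depleted in N2, 53 lay in the left and middle parts of V. These parts hold 697 and 698 of the 10029 bins, and 302 and 107 of the 2297 bins enriched in met-2. Of the 260 enriched domains, 77 of them on V, 23 held no bin enriched in N2, and 15 of these were on V.

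**Figure D5:**
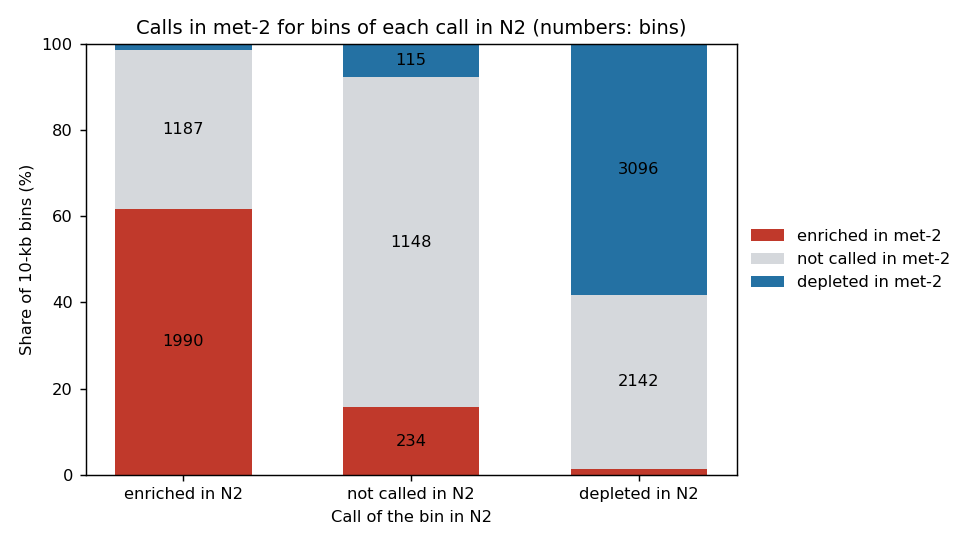
Share of 10-kb bins (%) enriched, not called or depleted in met-2, for bins of each call in N2, with the number of bins in each block above 5%. Of bins enriched in N2 1990 were enriched in met-2, and of bins depleted in N2 3096 were depleted in met-2.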

How the data were processed

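Per the labels, LEM-2 IP and input libraries were made from fixed early embryos, 3 of each kind per strain. The deposited table holds log2 values, log2 of scaled reads plus 2, for 200538 windows of 500 bp, with 1 column per library, per the file headers and values. Whole reads were recovered for 100.0% of values, within 0.01 of a whole number. The submitters' processing notes name ce10, but the windows end at other chromosome lengths, so coordinates are those of the deposited table and no gene or sequence was assigned. No aligner or filter is named in the labels.

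For bins of 10 kb, IP and input were compared by limma (version 3.58.1, under R 4.3.3; moderated with a trend, 6 met-2 libraries, 4 residual degrees of freedom, Benjamini-Hochberg adjusted p under 0.05), and met-2 was compared with N2 in a 12-library fit. Python 3.11.15, numpy 2.4.6, pandas 2.3.3 and matplotlib 3.10.9 did the rest. The fit and the domain finder were tested on simulated data. Columns carry letters, not the replicate numbers of the labels. Domains named were, on II to V and X, the longest and highest enriched and longest and lowest depleted, plus the 3 longest enriched in autosomal middle parts and the 3 longest depleted in autosomal outer parts; no domain of chromosome I is named. Members, lists and rules were chosen with earlier results of these data known. Since every IP of a strain is set against the same input mean, the SDs do not hold the spread among inputs.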

Additional observations from a re-analysis of the deposited data

Results flagged for a closer look

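The difference between met-2 and N2 in IP minus input passed its own test (limma over 12 libraries, Benjamini-Hochberg adjusted p under 0.05) in 4555 bins that were higher and 2228 that were lower in met-2. These counts turn to 2849 and 3425 on median-centred libraries.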

How the results depend on the processing

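Over the 6 fits with a met-2 library left out, enriched bins numbered 1840 to 2433 (18.3 to 24.3%) and depleted bins 2400 to 3725 (23.9 to 37.1%), with 226 to 281 enriched domains over 17.49 to 24.07 Mb and 259 to 341 depleted domains over 21.60 to 35.45 Mb. The parts called enriched then numbered 2 to 4, and the left part of II ran from -0.024 to 0.017, above 0 without IP c (0.0173) or input c (0.0168). At an adjusted p under 0.01 the depleted bins fell to 2106 (21.0%) and their domains to 18.75 Mb, since fewer bins pass. Keeping domains of a single bin gave 487 enriched domains with a median of 30 kb and 673 depleted domains with a median of 20 kb, and requiring 5 bins gave 210 depleted domains; these follow from the rule. Median-centred libraries gave 8 enriched parts, moved the left part of II to 0.067 and the middle part of V to 0.0070, and split the bins that differ from N2 into 2849 higher and 3425 lower. The X contrast, 0.022, ran from 0.011 (without input a) to 0.034 (without input c) with a library left out, and turned to -0.011 with medians over bins (exact permutation p = 0.6); the cause was not tested.

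With the replicate block by column letter, 2020 bins were enriched and 2782 depleted, and the right part of III no longer passed (limma, adjusted p = 0.059). Same-letter IP and input deviations had r of -0.19, -0.35 and -0.48, so the main fits did not take the letters as pairs. Correlations between columns, held-out heights and edge profiles did set each IP against the input of its own letter. The arm contrast lay between 0.23 and 0.30 over the 6 fits with a library left out, and had p = 0.25 in the exact permutation test with the replicate block, the smallest that 3 letters allow. Heights of the 23 named domains kept their sign in all 184 values. Leaving out N2 column a and scaling parts by the SD over bins were chosen after seeing the data. Depth was lowest in met-2 IP b, and without it 1924 bins were enriched and 2624 depleted.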
